A study of Drosophila melanogaster with 6 samples.

Results

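The genes described here lie in the assembled heterochromatin next to the centromeres of the autosomes and on the Y chromosome of Drosophila melanogaster. They are the 61 of 16641 gene rows whose exons all lay on 2LHet, 3LHet, 3RHet or YHet, the heterochromatic scaffolds of the dm3 genome build, after leaving out the ribosomal protein gene RpL15. There were 7 on 2LHet, 21 on 3LHet, 19 on 3RHet and 14 on YHet. Their RNA was sequenced from dissected heads of 3-day-old males raised at 18 C, in 3 libraries of flies whose strain label reads y, sc, Adar5G1 and in 3 libraries of w1118 flies. Adar5G1 is an allele of Adar, the gene of the enzyme that converts adenosines to inosines in double-stranded RNA, in a stock that also carries alleles of yellow and scute; w1118 carries a mutated white gene and was called wild type by the submitters. Each genotype was 1 stock. An effect of the Adar allele and any other difference between the stocks, on the X, autosomes or Y, cannot therefore be told apart. The labels do not say how the replicate libraries of a stock were collected, so that the spread behind each p-value may be only technical.

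Heterochromatin is the compact, repeat-rich part of the genome, marked by methylation of histone H3 at lysine 9 and bound by Heterochromatin Protein 1. Genes moved into it are often silenced, whereas the genes that normally reside there are adapted to it, often have long introns filled with transposon remnants, and several are known to need heterochromatin proteins for full expression. The protein-coding genes of the Y chromosome are known mainly for roles in sperm, and are transcribed in the testis. Adar has been linked to silencing by heterochromatin in flies through double-stranded RNA from a transposon. The comparison described here asks whether transcripts of resident heterochromatic genes differed in abundance between mutant and wild-type heads.

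Libraries held between 6872569 and 21639081 counts in gene rows. Rows of ribosomal RNA or on unplaced scaffolds took between 9.42% and 45.2% of them, a share that did not separate the genotypes. Adar itself (FBgn0026086; X:1667758-1682098 in dm3, the build of all coordinates here) had 5, 1 and 19 counts in Adar5G1 and 2860, 6142 and 2602 in w1118. Levels are given as CPM, counts scaled to library size with TMM factors. The tissue label was checked with marker lists. The 4 photoreceptor markers in the files summed to between 13972 and 16009 CPM in Adar5G1 libraries and between 17578 and 18726 CPM in w1118 libraries, and 1 of them fell. The 4 neuron markers summed to between 3892 and 4784 CPM in Adar5G1 and between 3340 and 3767 CPM in w1118, and 1 rose. The 5 glia markers summed to between 1463 and 1663 CPM in Adar5G1 and between 1552 and 1710 CPM in w1118, with 0 called, and the 4 muscle markers to between 4258 and 4914 CPM in Adar5G1 and between 4591 and 5272 CPM in w1118, with 1 fall. The 6 head fat body markers, 4 of them tested, summed to 376.5, 882.4 and 246.2 CPM in Adar5G1 and 109.3, 63.6 and 136.4 CPM in w1118, and 1 rose; the part of such shifts in the results on heterochromatic genes was not tested. Of 14 testis and male germ line markers only 3 reached the count filter, and 0 were called. Their summed level was 4.57, 5.91 and 6.42 CPM in Adar5G1 and 4.41, 4.87 and 4.21 CPM in w1118. The 3 tested markers were twe, mia and betaTub85D, with log2 fold changes of 0.62, 0.71 and -0.63. The spermatid genes Mst84Db, Mst87F and dj had at most 1 count in any library, and Mst98Ca had 3 in w1118 replicate 2.

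Of the 61 heterochromatic genes 11 had 0 counts in every library, and 32 had at least 10 counts in 3 or more libraries and were tested. These were 3 genes on 2LHet, 16 on 3LHet and 13 on 3RHet, and no gene on YHet. A symbol was known for 31 of the 61 rows, 18 of them tested. The other 30 are named by the identifiers of the deposited annotation, and no role is given for them. At the edge of the filter, FBgn0085597 was just inside, with 15, 3 and 19 counts in Adar5G1 and 8, 16 and 8 in w1118. FBgn0261280 was just outside, with 7, 0 and 18 counts in Adar5G1 and 5, 13 and 8 in w1118.

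None of the 32 tested heterochromatic genes differed between Adar5G1 and w1118 at an adjusted p of 0.05 (edgeR quasi-likelihood test, Benjamini-Hochberg over 10214 genes). The same threshold was passed by 1408 genes in all, 13.8% of those tested, with 8.63% higher and 5.16% lower. At an adjusted p of 0.01, 6.79% of all genes passed. At an unadjusted p under 0.05 there were 4 heterochromatic genes, against 26.2% of all genes. DESeq2 called 2 higher and 1 lower, where it called 13.8% of all genes, and limma-voom called 0, where it called 13.7%. The groups of libraries did not overlap for 4 of the 32 genes, against 31.3% of all tested genes. The median log2 fold change was -0.09 for the 32 genes and 0.00 (-0.000140) for all tested genes. It was lower than 0 in 24 of the 32 and higher in 8. The approximate 95% interval of the fold change lay within 2-fold in either direction for 29 of the 32, and for 80.6% of all tested genes; the 3 exceptions were FBtr0305903, FBgn0058155 and CG40198.

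**Figure D1:**
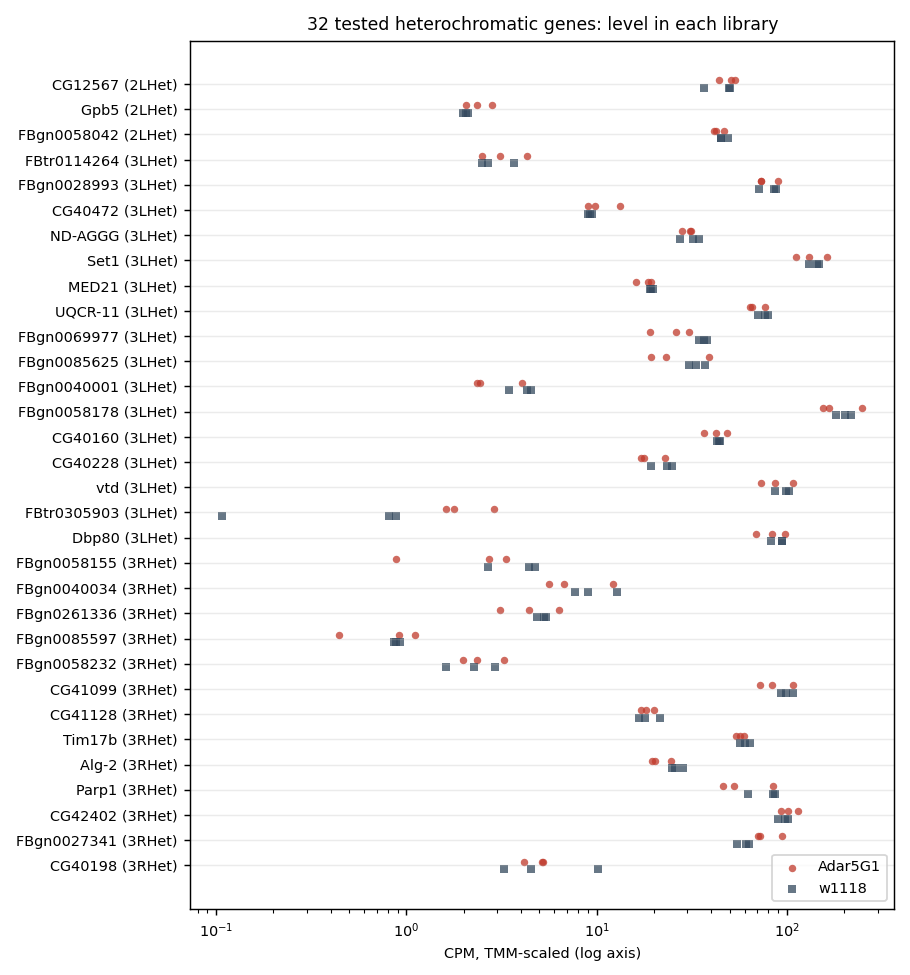
Level of each of the 32 tested heterochromatic genes in CPM on a log axis, with genes ordered by scaffold and position; circles are the 3 Adar5G1 libraries and squares the 3 w1118 libraries. The 2 groups overlap for 28 genes, and FBtr0305903, FBgn0027341, FBgn0069977 and Alg-2 are the 4 without overlap.

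The 4 genes closest to the threshold were 2 higher and 2 lower in Adar5G1, and are named here after their values were seen. FBtr0305903 (3LHet:2277400-2277931, plus strand), a single-exon row, had 1.62, 1.77 and 2.87 CPM in Adar5G1 and 0.812, 0.886 and 0.108 CPM in w1118. The counts were low, with 22, 12 and 60 in Adar5G1 and 7, 16 and 1 in w1118. Only 1 wild-type library reached 10 counts, so the row passed the filter through the mutant libraries, where it is higher, and its difference lends no support to a change in this set of genes. Its edgeR adjusted p was 0.0516 (log2 fold change 1.73, SE 0.49). The adjusted p was 0.00472 with scaling to total counts only, where 7.55% of all genes were called. It was 0.0220 with DESeq2, 0.0337 with no filter and 0.0474 when ribosomal and unplaced rows were left out. It did not pass with RLE scaling (0.0522), upper-quartile scaling (0.0560) or limma-voom (0.0641), nor without any 1 of the 6 libraries (0.0678 to 0.157).

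FBgn0027341 (3RHet:2470208-2481648, plus strand) had 94.2, 72.2 and 70.8 CPM in Adar5G1 and 54.8, 60.9 and 63.3 CPM in w1118. The mutant libraries were all higher, replicate 1 the most. Its edgeR adjusted p was 0.0608 (log2 fold change 0.41, SE 0.12). FBgn0069977 (3LHet:722418-789756, minus strand) had 26.0, 19.1 and 30.5 CPM in Adar5G1 and 38.1, 34.6 and 36.8 CPM in w1118, lower in every mutant library. Its edgeR adjusted p was 0.0625 (log2 fold change -0.51, SE 0.15). DESeq2 called both of these genes, with adjusted p = 0.0299 for the first and 0.0244 for the second. Both also passed in edgeR with no filter (adjusted p = 0.0413 and 0.0389). With upper-quartile scaling FBgn0069977 passed (edgeR adjusted p = 0.0440) and FBgn0027341 did not (0.0852). Neither passed with total counts only (edgeR adjusted p = 0.664 for FBgn0027341 and 0.427 for FBgn0069977) or with limma-voom (0.0706 and 0.0698). Alg-2 (3RHet:1894569-1899122, minus strand), which encodes a small calcium-binding protein, had 20.4, 19.6 and 24.6 CPM in Adar5G1 and 25.8, 24.9 and 28.5 CPM in w1118. The highest mutant library lay just below the lowest wild-type library, with an edgeR adjusted p of 0.163 (log2 fold change -0.28, SE 0.11).

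**Figure D2:**
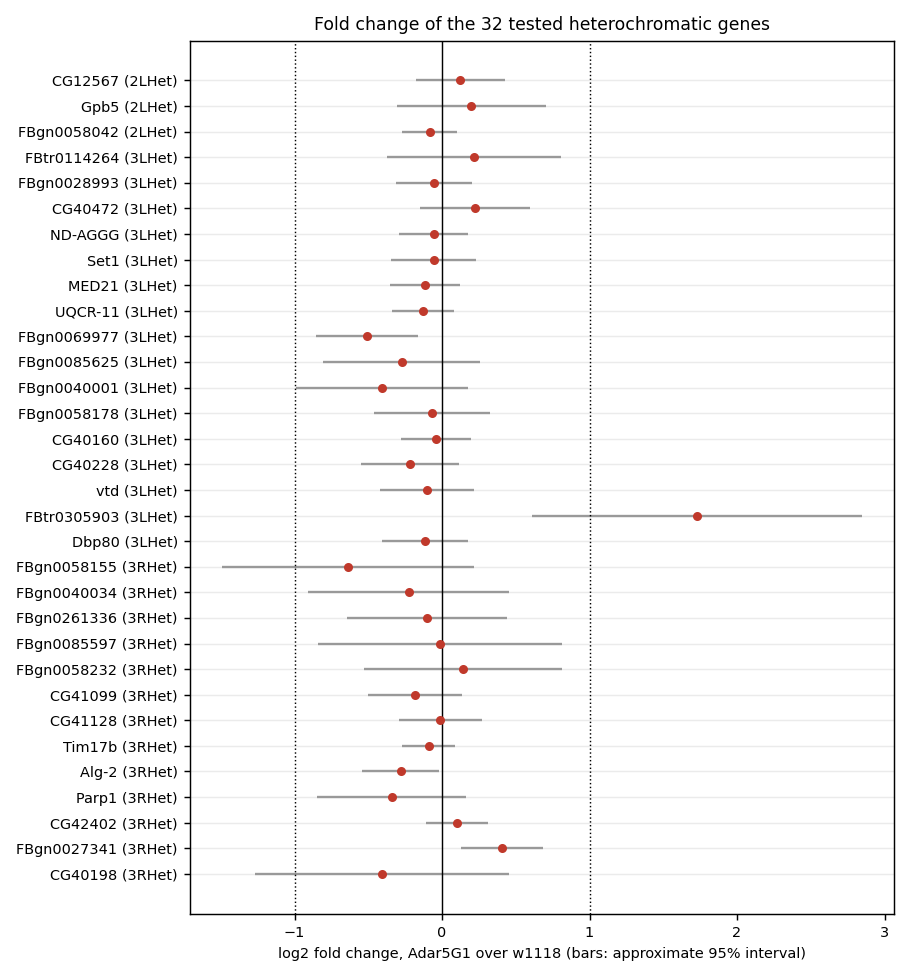
Fitted log2 fold change, Adar5G1 over w1118, of the 32 tested heterochromatic genes, with approximate 95% intervals; dotted lines mark 2-fold changes. Of the intervals, 29 lie between the dotted lines, and FBtr0305903 has the highest value, 1.73.

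Among genes with products that act on chromosomes and transcription, none passed. Set1 (3LHet:593050-600636), which encodes a histone H3 lysine 4 methyltransferase, had 130.9, 112.1 and 161.5 CPM in Adar5G1 and 144.3, 147.1 and 130.5 CPM in w1118. The mutant libraries lay on both sides of the wild-type ones, and the log2 fold change was -0.06 (95% interval -0.35 to 0.23). MED21 (3LHet:600380-601402), a subunit of the Mediator complex that links activators to RNA polymerase II, had 16.0, 19.4 and 18.5 CPM in Adar5G1 and 19.1, 19.4 and 19.7 CPM in w1118. Its exons overlap those of Set1 on the other strand, and the authors counted by strand. The cohesin subunit gene vtd (3LHet:2243577-2265363) had 86.1, 72.7 and 108.1 CPM in Adar5G1 and 103.0, 98.4 and 86.2 CPM in w1118, with a log2 fold change of -0.10 (95% interval -0.42 to 0.22).

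Parp1 (3RHet:1935205-2026815) encodes poly(ADP-ribose) polymerase, an enzyme of chromatin loosening and DNA repair that is itself a long-known heterochromatic gene. It had 52.7, 46.1 and 84.3 CPM in Adar5G1 and 84.6, 86.6 and 62.7 CPM in w1118. Mutant replicates 1 and 2 were the lowest of the 6 libraries and replicate 3 was close to the highest wild-type values. The log2 fold change was -0.34 (95% interval -0.85 to 0.17, edgeR adjusted p = 0.389), and without Adar5G1 replicate 3 it was -0.66 (adjusted p = 0.0225). Dbp80 (3LHet:2409852-2545146), a DEAD-box RNA helicase gene of the messenger RNA export pathway, spread over 135295 bases for 2575 bases of exon. It had 83.4, 68.4 and 97.7 CPM in Adar5G1 and 94.6, 94.6 and 82.3 CPM in w1118, a log2 fold change of -0.12 (95% interval -0.41 to 0.17).

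The 3 genes for mitochondrial proteins had some of the narrowest intervals of the set. UQCR-11 (3LHet:606165-611627), a subunit of respiratory complex III, had 65.7, 64.0 and 76.9 CPM in Adar5G1 and 79.5, 76.4 and 70.3 CPM in w1118. ND-AGGG (3LHet:459586-460450), a subunit of complex I, had 30.8, 28.2 and 31.3 CPM in Adar5G1 and 34.3, 32.2 and 27.5 CPM in w1118. Tim17b (3RHet:1813575-1824026), a component of the import channel of the inner membrane, had 56.7, 53.9 and 59.4 CPM in Adar5G1 and 60.4, 56.6 and 64.3 CPM in w1118. The groups overlapped for all 3, and the log2 fold changes were -0.13, -0.06 and -0.09, with 95% intervals of -0.34 to 0.08 for UQCR-11, -0.29 to 0.18 for ND-AGGG and -0.27 to 0.09 for Tim17b.

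Both hormone-related genes had low levels. Gpb5 (2LHet:167215-167979), which encodes a subunit of a glycoprotein hormone, had 2.07, 2.81 and 2.35 CPM in Adar5G1 and 1.97, 2.10 and 2.05 CPM in w1118, with a log2 fold change of 0.20 (95% interval -0.30 to 0.70). The cytochrome P450 gene spok (3RHet:2127184-2158789), which acts in the synthesis of the moulting hormone ecdysone, had 3, 0 and 2 counts in Adar5G1 and 5, 18 and 6 counts in w1118. It reached 10 counts in w1118 replicate 2 only and was not tested. Fitted without a count filter, where 10.8% of all genes were called, spok had a log2 fold change of -2.59 (edgeR adjusted p = 0.0294), on 5 counts in all mutant libraries and 29 in all wild-type libraries.

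Levels between genes were compared as CPM per kilobase of exon, averaged over the 6 libraries. The median of the 32 tested genes was 20.0, against 9.34 for all tested genes, and single genes ran from 0.477 for FBgn0040001 to 63.4 for FBgn0058178. The leading genes per kilobase were FBgn0058178 (63.4), FBgn0085625 (60.4) and UQCR-11 (44.7) on 3LHet, and Tim17b (60.9), CG41128 (58.0) and CG41099 (25.5) on 3RHet. On 2LHet they were FBgn0058042 (50.2), CG12567 (20.4) and Gpb5 (2.91), the only tested genes there. Of these, CG41128 had 20.1, 17.1 and 18.2 CPM in Adar5G1 and 21.6, 18.1 and 16.6 CPM in w1118, with a log2 fold change of -0.01 (95% interval -0.29 to 0.27). CG12567 had 50.8, 44.2 and 53.2 CPM in Adar5G1 and 50.2, 49.6 and 36.6 CPM in w1118, and FBgn0058042 had 46.8, 41.4 and 42.4 CPM in Adar5G1 and 48.7, 44.9 and 45.0 CPM in w1118. The groups overlapped for each of these 3.

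The rows without a symbol held the highest and the lowest fold change of the set. The median SE of the log2 fold change was 0.25 for the 14 tested rows without a symbol and 0.13 for the 18 with one, beside median levels of 9.48 and 22.0 CPM per kilobase. FBgn0058155 on 3RHet had the lowest value of the 32, a log2 fold change of -0.64, with a 95% interval of -1.49 to 0.21.

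The Y chromosome rows were at or near 0 in the heads of both genotypes. Summed over the 14 YHet rows there were 3, 0 and 4 counts in Adar5G1 and 4, 10 and 7 in w1118. Scaled to library size, the sums were 0.221, 0 and 0.192 CPM in Adar5G1 and 0.464, 0.554 and 0.755 CPM in w1118. These sums did not overlap, with means of 0.138 ± 0.120 CPM in Adar5G1 and 0.591 ± 0.149 CPM in w1118, a difference of -0.45 CPM on 7 counts in all mutant libraries and 21 in all wild-type libraries. No test was made of a sum over these rows. Ppr-Y, ORY and Pp1-Y2 had 0 counts in every library, as did 4 further YHet rows. The dynein heavy chain gene kl-2, a male fertility gene whose product acts in the sperm tail, had 1 count, in w1118 replicate 2, over 12450 bases of exon, and FDY had 1 count, in Adar5G1 replicate 1. A count of 0 allows up to 3 counts, which is 0.144 to 0.443 CPM in an Adar5G1 library and 0.166 to 0.348 CPM in a w1118 library; these limits cover counting error only, as no molecular identifiers are described for the reads. Most of the YHet counts were in FBtr0114242, with 1, 0 and 2 counts in Adar5G1 and 2, 6 and 3 in w1118, and in FBtr0114245, with 1, 0 and 0 counts in Adar5G1 and 0, 2 and 3 in w1118. These rows stand near each other with FBtr0114241, FBtr0114243 and FBtr0114244, and whether counts were split among similar copies was not tested. ARY lay on 3LHet in the deposited build, whereas the BDGP6 annotation places the same identifier on Y; it had 1 count, in w1118 replicate 2. FBtr0114289, the third leading YHet row per kilobase, had 2 counts, both in Adar5G1 replicate 3.

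Summed over all members of a scaffold, including those under the filter, levels of Adar5G1 and w1118 overlapped on each autosomal scaffold. The 2LHet sum was 95.8 ± 5.99 CPM in Adar5G1 and 94.3 ± 8.75 CPM in w1118. For 3LHet it was 780.1, 700.4 and 997.6 CPM in Adar5G1, a mean of 826.0 ± 153.8, and 925.7, 911.3 and 831.0 CPM in w1118, a mean of 889.3 ± 51.0. For 3RHet it was 451.9 ± 60.2 CPM in Adar5G1 and 469.3 ± 23.1 CPM in w1118 (SD, n = 3 each throughout). The 3LHet sums of the mutant libraries thus reached both below and above all wild-type sums. These are bulk heads, in which fewer cells of a type and less RNA per cell cannot be told apart.

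For these genes the mutant libraries differed among themselves more than the wild-type libraries did. The SD over replicates of log2(CPM + 0.5) had a median of 0.26 in Adar5G1 and 0.12 in w1118 over the 32 genes, and was greater in Adar5G1 for 25 of them. Over all tested genes the medians were 0.15 in Adar5G1 and 0.13 in w1118, and it was greater in Adar5G1 for 54.8%. The rows on 2RHet, another heterochromatic scaffold, had medians of 0.26 in Adar5G1 and 0.16 in w1118, and it was greater in Adar5G1 for 82.6% of them. On chromosome 4 the medians were 0.20 in Adar5G1 and 0.12 in w1118, and the SD was greater in Adar5G1 for 80.4%. The heterochromatic scaffold XHet, without ribosomal RNA pseudogenes, went the other way. Its medians were 0.08 in Adar5G1 and 0.15 in w1118, and the SD was greater in Adar5G1 for 22.2%. Adar5G1 replicate 3 was the highest mutant library for 24 of the 32 genes, against 32.4% of all tested genes and 73.9% of the tested rows on 2RHet. Adar5G1 replicate 2 was the lowest for 25 of the 32, against 33.8% of all tested genes. That share was 77.2% on chromosome 4, 65.2% on 2RHet and 11.1% on XHet without ribosomal RNA pseudogenes. Relative to the w1118 mean of each gene, the median of the 32 genes on the log2 scale was -0.12, -0.25 and 0.12 for replicates 1, 2 and 3 of Adar5G1, and 0.05, 0.04 and -0.10 for those of w1118. The order of the mutant libraries was also that of their depth, with 12040951, 7189944 and 21639081 counts in replicates 1, 2 and 3; in w1118 the deepest library, replicate 2, with 17709643 counts, and the shallowest, replicate 1, with 6872569, had nearly the same median. The head fat body markers ran the other way among the mutant libraries, highest in replicate 2 and lowest in replicate 3. So did the summed photoreceptor, glia and muscle markers. The neuron markers ran in the order of the medians in both groups. They summed to 3985, 3892 and 4784 CPM in Adar5G1 and to 3767, 3752 and 3340 CPM in w1118. The part of depth, of fat body RNA or of cell composition in this pattern was not tested.

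**Figure D3:**
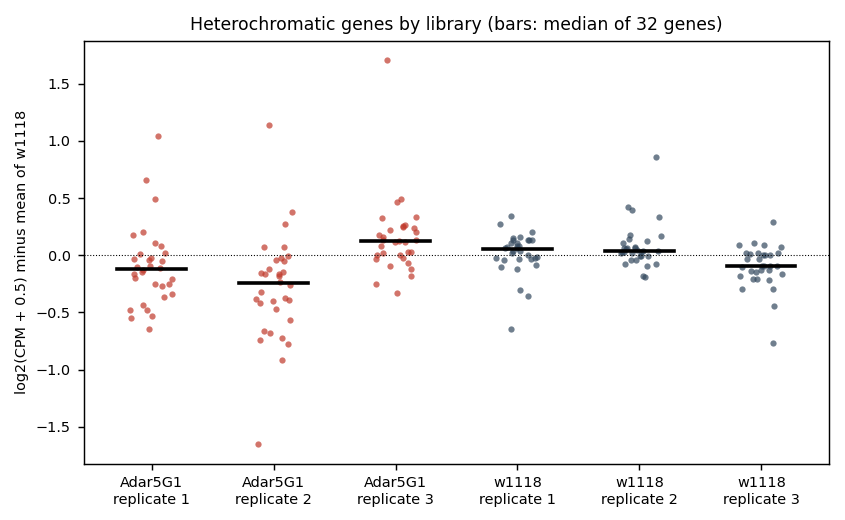
Each point is 1 of the 32 tested heterochromatic genes in 1 library, as log2(CPM + 0.5) minus that gene's mean over the w1118 libraries; bars are medians over genes. The medians of Adar5G1 replicates 2 and 3, -0.25 and 0.12, lie on opposite sides of the w1118 medians, which run from -0.10 to 0.05.

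Of the 32 genes, those with Adar5G1 replicate 3 as their highest mutant library were mostly those with a long span. The median span of the 32 genes, from first to last exon, was 10946.5 bases, against 2798 for all tested genes, and the median ratio of span to exon length was 4.54 against 1.23. Among the 17 genes with a span of at least 10 kb, Adar5G1 replicate 3 was the highest mutant library for 16, and the median of its difference from replicates 1 and 2 was 0.45 on the log2(CPM + 0.5) scale. Among the 15 shorter genes it was the highest for 8, with a median difference of 0.20. Among the 1884 tested genes outside this set with a span of at least 10 kb it was the highest for 62.4%, with a median difference of 0.10. Across the 32 genes, Spearman's rho between span and this difference was 0.60, given as a description over genes that share their libraries; in w1118 the same measure gave -0.03. It was 0.36 over the genes on 3LHet and 0.79 over those on 3RHet. It was 0.76 over the 17 genes of at least 10 kb and 0.16 over the 15 shorter genes. Over all tested genes it was 0.26 in Adar5G1 and -0.19 in w1118. On chromosome 4, replicate 3 was the highest mutant library for 83.7% of tested genes, and rho in Adar5G1 was 0.05. On 2RHet from 600 kb the share was 90.9% and rho was 0.06, and over all tested 2RHet rows rho was 0.35. The limit of 600 kb was set after the values were seen, and 9 of the 11 tested rows beyond it spanned at least 10 kb. The part of span in the replicate 3 difference was not tested. The longest genes had replicate 3 as their highest mutant library but differed in where it stood against w1118. FBgn0058178 on 3LHet, with 215672 bases, had 167.4, 154.1 and 249.3 CPM in Adar5G1 and 202.1, 217.0 and 180.9 CPM in w1118. FBgn0085625 on 3LHet, with 142197 bases, had 23.1, 19.4 and 39.2 CPM in Adar5G1 and 36.9, 33.3 and 30.6 CPM in w1118. In both, replicate 3 of the mutant exceeded every wild-type library while replicates 1 and 2 lay below all of them. FBgn0058232 on 3RHet, with 179860 bases, had 1.99, 2.36 and 3.26 CPM in Adar5G1 and 1.62, 2.94 and 2.27 CPM in w1118, with mutant replicates 1 and 2 inside the wild-type range. FBgn0040034 on 3RHet, with 176671 bases, had 6.71, 5.61 and 12.2 CPM in Adar5G1 and 7.66, 12.7 and 8.95 CPM in w1118, with mutant replicate 3 below the highest wild-type library.

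**Figure D4:**
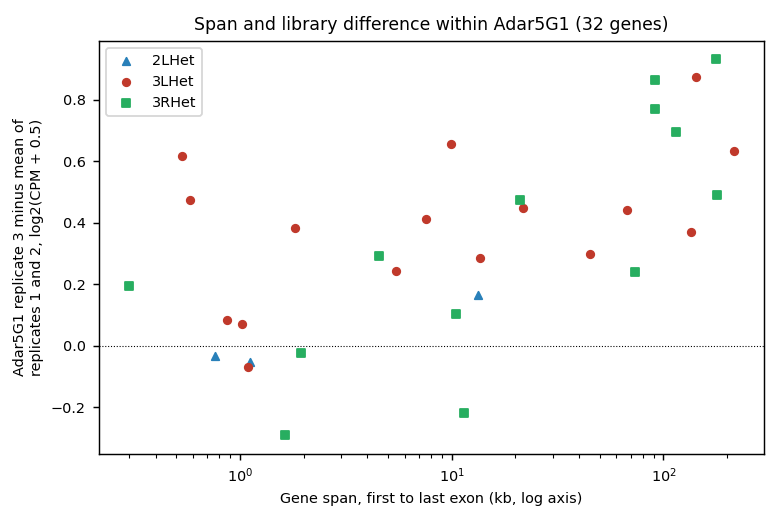
Gene span in kb on a log axis against the level in Adar5G1 replicate 3 minus the mean of replicates 1 and 2, in log2(CPM + 0.5), for the 32 tested heterochromatic genes by scaffold. Longer genes lie higher, with a median of 0.45 for the 17 genes of at least 10 kb and 0.20 for the 15 shorter ones.

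Without Adar5G1 replicate 3, 1 of the 32 genes was called higher and 5 lower, where 14.7% of all genes were called. The 5 lower genes were FBgn0085625 (log2 fold change -0.65), FBgn0069977 (-0.67), Parp1 (-0.66), Alg-2 (-0.39) and CG41099 (-0.36), and the higher one was FBgn0027341 (0.49), with edgeR adjusted p between 0.0108 and 0.0445. The median log2 fold change of the 32 genes was then -0.19. Replicate 3 was the highest mutant library for 24 of the 32, so leaving it out lowers the mutant mean of those genes by construction. Without any other single library 0 of the 32 genes were called. The share of all genes called was 9.11% without Adar5G1 replicate 1, 10.3% without Adar5G1 replicate 2, 8.23% without w1118 replicate 1, 9.71% without w1118 replicate 2 and 12.1% without w1118 replicate 3. Without Adar5G1 replicate 2, the lowest mutant library for 25 of the 32 genes, their median was -0.00197. Of the fits that left out 1 library, only the one without Adar5G1 replicate 3 thus gave calls among these genes. The count of 0 also moved with every library kept, where DESeq2 called 2 higher and 1 lower. Of the 2 higher genes, 1 was FBtr0305903, which passed the filter through the mutant libraries and lends no support. The part of the depth of replicate 3 in these calls was not tested.

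Genes of other heterochromatic scaffolds, outside the rule, did not share one pattern. On 2RHet, 14 of 23 tested rows fell and 3 rose in Adar5G1 (edgeR), and the median log2 fold change was -0.75, against 0 of 32 called and -0.09 on 2LHet, 3LHet and 3RHet. Of all tested genes 13.8% were called. No test of this difference between scaffolds was made. The falls were concentrated at 1 end: of 12 tested rows starting below 600 kb of 2RHet, a limit set after the values were seen, 11 fell, with a median of -1.04. Several of these rows overlap, and FBtr0334741 and FBtr0302396 held the same counts in each library, so that the rows are not separate observations. The MAP kinase gene rl, long known as a heterochromatic gene, had 96.1, 83.8 and 127.8 CPM in Adar5G1 and 221.4, 221.1 and 182.5 CPM in w1118, with an edgeR adjusted p of 0.00340 (log2 fold change -1.02, SE 0.15). The 3 rises were those of CG17684, CG41378 and dpr21, with log2 fold changes of 1.02, 0.68 and 1.06; the call of CG41378 was lost without Adar5G1 replicate 3 or any single w1118 library. On XHet, 0 of 9 tested rows other than ribosomal RNA pseudogenes passed, with a median of 0.01. On chromosome 4, which is also rich in heterochromatin, 5 of 92 rose and 2 fell (7.61% called), with a median of 0.01. Adar5G1 replicate 3 was the highest mutant library for 83.7% of its genes, against 33.3% on XHet.

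**Figure D5:**
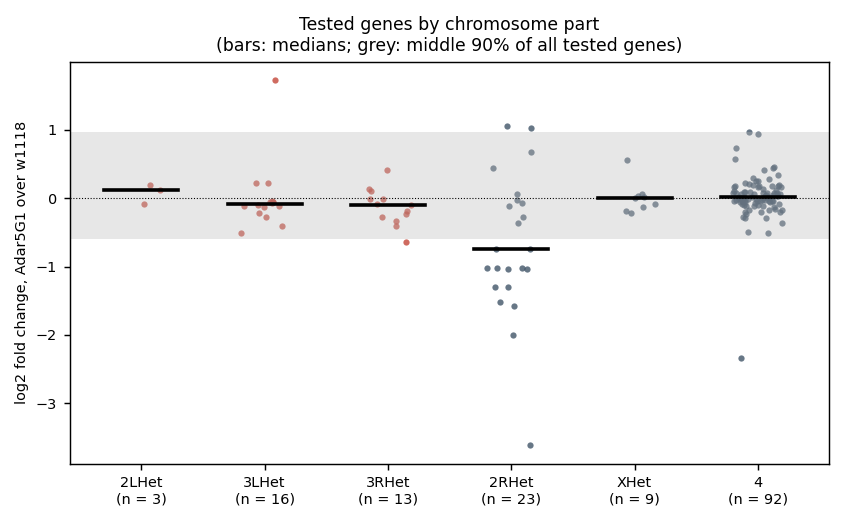
Log2 fold change, Adar5G1 over w1118, of tested genes on the scaffolds described (2LHet, 3LHet, 3RHet), on 2RHet, on XHet without ribosomal RNA pseudogenes and on chromosome 4; bars are medians and the grey band holds the middle 90% of all tested genes. The 2RHet median is -0.75, and the others lie between -0.10 and 0.12.

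The euchromatic ends next to the heterochromatin of the same arms were called at 9.68% on 2L, 16.7% on 3L and 14.1% on 3R, against 13.8% of all tested genes. In the last 1 Mb of 2L, 2 of 31 tested genes rose and 1 fell. In the last 1 Mb of 3L, 1 of 12 rose and 1 fell, and in the first 1 Mb of 3R, 6 of 85 rose and 6 fell. The median log2 fold changes were -0.06, -0.08 and -0.01 in that order of arms.

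Among listed genes elsewhere in the genome whose products build, bind or act on heterochromatin or silence transposons, a single one passed the threshold. Of 45 such genes listed, 43 were in the files and 40 were tested; 1 fell and 0 rose, against 13.8% of all tested genes called, and 3 had an unadjusted p under 0.05. Their median log2 fold change was -0.07. The gene that fell was D1, which encodes a protein that binds AT-rich satellite DNA, with 51.5 ± 1.45 CPM in Adar5G1 and 61.8 ± 2.88 CPM in w1118 (log2 fold change -0.26, SE 0.07, edgeR adjusted p = 0.0426). Its call was lost with scaling to total counts only, with no filter, with DESeq2 (adjusted p = 0.0899) and without any 1 of the 6 libraries (adjusted p from 0.0600 to 0.132). The gene of Heterochromatin Protein 1a (FBgn0003607) had 26.96 ± 0.294 CPM in Adar5G1 and 29.8 ± 1.52 CPM in w1118 (edgeR adjusted p = 0.321). The histone H3 lysine 9 methyltransferase gene egg had 23.6 ± 0.385 CPM in Adar5G1 and 26.7 ± 2.39 CPM in w1118 (edgeR adjusted p = 0.262). Of the 40 tested genes, 29 had a log2 fold change below 0 and 11 had one above 0. Those above 0 included wde (0.14) and Su(var)3-9 (0.04). The genes named here other than D1 were chosen after their values were seen.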

How the data were processed

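The values the authors deposited are whole-number counts of fragments for each gene. Per the file headers, featureCounts (1.4.5-p1) made them from paired fragments on exons of FlyBase release 5.53, counting the reverse strand and crediting every gene a fragment touched. Multi-mapping reads were not requested, so counts of repeated or near-identical genes can be too low. Per the submitters' processing notes, the aligner was TopHat, in a version not given here, and the build dm3 (BDGP5). The labels name polyA RNA and also ribosomal RNA depletion. Symbols were paired with 15924 of 16641 identifiers by ID. The 1 row without an ID (0.369% to 0.633% of counts) was left out.

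All genes with 10 or more counts in at least 3 libraries were fitted with edgeR 4.0.16 in R 4.3.3 (TMM, quasi-likelihood test, group only). Standard errors were the log2 fold change over the square root of F, and intervals used them; both are approximate. Values are TMM-scaled CPM. Alternatives used DESeq2 1.42.0 and limma 3.58.1 among others. The test was tried on simulated data. Members, lists and tests were chosen with earlier results of these data known. Named genes were Adar, members past the threshold, members with 0 counts in 1 group and 10 or more in the other, the 3 leading members per kilobase on each scaffold, a list of characterised heterochromatic genes, and factor genes past the threshold; other genes were chosen after their values were seen. The genome sequence of these scaffolds was not used here.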

Additional observations from a re-analysis of the deposited data

How the results depend on the processing

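Of the 32 genes, 0 rose and 0 fell with RLE scaling, the default edgeR expression filter, limma-voom, an adjusted p of 0.01 and the replicate number as a block. With total counts only 1 rose and 0 fell, and without the ribosomal and unplaced rows 1 rose and 0 fell. Both of these rises were of FBtr0305903, the row that passed the filter through the mutant libraries. With upper-quartile scaling 0 rose and 1 fell, and with DESeq2 2 rose and 1 fell. FBtr0305903 was also 1 of the 2 rises with DESeq2 and 1 of the 2 with no filter. Of all tested genes, 7.55% were called with total counts only, 14.3% without ribosomal and unplaced rows and 15.2% with upper-quartile scaling. The share was 13.8% with RLE scaling and with DESeq2, 13.9% with the default edgeR filter and 7.23% with the replicate block. With no filter, over those of the 61 genes with at least 1 count, 2 rose and 2 fell; 1 of the falls was spok, which is not among the 32. Leaving out 1 library gave 0 to 1 rises and 0 to 5 falls, the highest numbers without Adar5G1 replicate 3. The cause of these differences was not tested. The median log2 fold change ran from -0.19 to -0.002 (-0.00197) over the settings. The 1 fall in the heterochromatin factor list was lost (0 falls) with total counts only, no filter, the replicate block, DESeq2, an adjusted p of 0.01 and each left-out library, where falls were 0 to 0. The difference of -0.45 CPM, Adar5G1 minus w1118, in the sum over YHet rows was -0.62 without the ribosomal and unplaced rows, which lowers the library totals by construction. On 2RHet, examined after seeing the data, 9 rows fell with total counts only, 1 rose with the replicate block, 1 rose at an adjusted p of 0.01, and 2 to 3 rose and 12 to 15 fell when 1 library was left out. Deviations of same-numbered libraries from their group means correlated at 0.09, -0.17 and -0.26 for numbers 1, 2 and 3 over 10214 genes. Not every library correlated best with its own number, and the highest value was 0.31, for Adar5G1 replicate 3 with w1118 replicate 2. With 3 libraries per group, these values cannot show whether same-numbered libraries were handled together. The replicate block left 738 genes called in place of 1408 over the whole table. Upper-quartile scaling moved the median of all genes to -0.06. Genes under about 1 CPM rest on few counts, 10 counts being 0.479 to 1.48 CPM.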
